A study of Mus musculus with 4 samples.

Results

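Myelin is the insulating membrane that oligodendrocytes wrap around axons, and the 34 genes described here encode its proteins, the enzymes that make its lipids, and factors that act as an oligodendrocyte matures. They were taken as a list of names, and all 34 were among the 31557 gene symbols of the count table. The cells were nestin-GFP-positive cells of the dentate gyrus, the hippocampal region in which neurons are still born in adult life, from 8 male nestin-GFP mice, in which regulatory sequences of the nestin gene drive the green fluorescent protein. Antagomir mice (mice 2, 4, 6 and 8) had been infused into a cerebral ventricle with 2 µl of Ant-132, a locked nucleic acid (LNA) oligonucleotide carrying cholesterol and directed against miR-132, dissolved to 0.33 nmol/ml in an artificial form of cerebrospinal fluid. Scrambled mice (mice 1, 3, 5 and 7) had been given a scrambled LNA oligonucleotide in the same fluid, at a dose that the sources used here leave out. All mice were injected at 2 months and analysed at 3 months of age. The microRNA itself was not measured, so these data do not tell how far it was blocked.

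Each mouse gave 96 wells, and 716 of 768 were kept for holding 500 to 6000 detected genes. Of these, 363 came from scrambled and 353 from antagomir mice, with 4118 to 1640971 counts per well (median 650777). The sum per mouse was 43996495 to 69191485 counts. The deposited well table also names a project for each mouse, here called library sets L5 (mice 1, 2, 5 and 6) and L6 (mice 3, 4, 7 and 8). What a project stands for is not stated there, so the word set is a name only. The table also gives 2 sort days (mice 1 to 4 and mice 5 to 8). Each combination of set and day held 1 mouse of each treatment. Cells were clustered without the 34 genes and the clusters named from other markers. This gave 299 oligodendrocyte-like cells (41.8% of the kept wells, Wilson 95% interval 38.2 to 45.4%), with 24 to 45 cells per mouse and a median of 833113 counts per cell. The other classes were 204 radial glia-like (RGL) or astrocyte-like, 87 endothelial-like, 84 mural-like, 25 neuroblast-like, 12 fibroblast-like and 5 oligodendrocyte precursor-like cells. Nes, the gene behind the sort, had a count in 71.2% of oligodendrocyte-like cells at 31.0 CPM (counts scaled to the same total in each sum). The same gene had a count in 96.4% of mural-like cells at 320 CPM. The label of the list held in these data, since oligodendrocyte-like cells had the highest mean level of 33 of the 34 genes among the 5 classes of 25 or more cells. Over all named classes, the 12 fibroblast-like and 5 precursor-like cells included, 4 genes were higher elsewhere: Zeb2 in neuroblast-like cells, and Olig1, Olig2 and Serinc5 in the precursor-like cells.

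An oligodendrocyte arises from a precursor cell that already uses the factors Olig1 and Olig2, and the factor Myrf switches on the myelin genes as the cell matures. The finished sheath holds compact layers, glued together by proteins such as Mbp, and loops filled with cytoplasm that touch the axon beside the node of Ranvier. Galactolipids made by Fa2h, Ugt8a and Gal3st1 make up much of its outer membrane leaflet.

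The mature strand of miR-132 is shown first, because the antagomir was directed against it, followed by the only members whose 3' untranslated region (UTR) held a match to its seed. Capitals mark the seed, bases 2 to 8 of the microRNA (RefSeq, GRCm38.p6, chr11:75173723-75173744, plus strand), and in the genes the matching 7 bases, all on the minus strand of GRCm38.
mmu-miR-132-3p: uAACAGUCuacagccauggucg
Myrf, chr19:10209898-10209927: tttctggggtttGACTGTTacactagacat
Plekhb1, chr7:100643275-100643304: cccaggtgtcagGACTGTTtccactgttgc
Plekhb1, chr7:100644179-100644208: ggagctcagctcGACTGTTaacatctgaag
Zeb2, chr2:44987236-44987265: aacctcaagaggGACTGTTaaatacaatgt

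For each gene the longest 3' UTR that GENCODE M21 annotates was searched. It was present in 3 of the 34 genes (8.82%) and in 2248 of all 20990 genes with a 3' UTR (10.71%). The median length of that region was 1318 bases in the members and 961 bases over all genes. A match is a description of the letters and not a measured target site.

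In oligodendrocyte-like cells the 34 genes together took 8.43% ± 0.485 of all counts (SD, n = 8 mice). Levels of different genes are compared here only per length, in TPM. It divides counts by the gene's exon length in GENCODE M21 and scales them to a common total. That length joins all annotated exons of a gene and can exceed that of any 1 transcript. It was 19942 bases for Zeb2 against 9124 in its longest coding transcript, and 5954 against 1746 for Aspa. Which transcripts the cells held was not measured, so ranks by TPM are rough. Cnp, an enzyme of the cytoplasmic channels of myelin, was highest at 11520 ± 2111 TPM (SD, n = 8 mice). The small heat shock protein Cryab at 11212 ± 2155 TPM and the tight junction protein Cldn11 at 10724 ± 1520 TPM lay within an SD of it. At the other end were the phosphodiesterase Enpp6 at 45.0 ± 30.0 TPM, the lipid transfer family gene Sec14l5 at 73.4 TPM, and Zeb2 and Myrf at 76.6 TPM each.

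**Figure D1:**
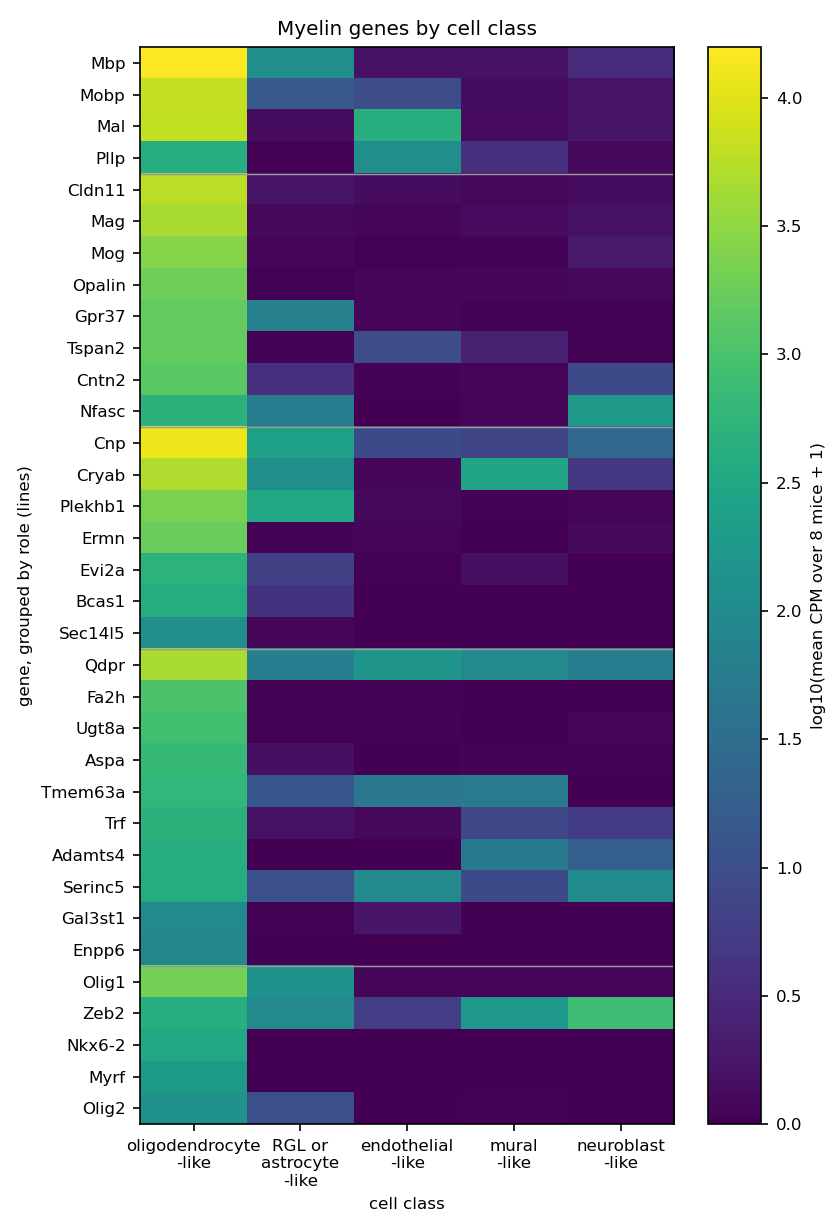
Mean level of the 34 genes (rows, ordered by role) in 5 cell classes (columns), as log10 of mean CPM over mice plus 1, so that colours are to be compared along a row. Oligodendrocyte-like cells are the brightest column for every gene except Zeb2, which is brightest in neuroblast-like cells.

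Among the compact myelin genes, Mal, a raft proteolipid, reached 7835 ± 1655 TPM. Mbp, which joins the inner faces of the membrane, reached 6340 ± 846 TPM over a summed exon length of 8469 bases that includes exons outside the classic myelin isoforms. Mobp, a smaller basic protein of the same compartment, stood at 3382 TPM and the proteolipid Pllp at 657 TPM. In CPM the level of Mbp in oligodendrocyte-like cells of scrambled mice was 17694 in mouse 1, 15452 in mouse 3, 15906 in mouse 5 and 14185 in mouse 7. In antagomir mice it was 16848 in mouse 2, 17624 in mouse 4, 14223 in mouse 6 and 14332 in mouse 8. The groups overlapped, and mice 1 and 4 were the highest.

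Of the surface, junction and paranode genes, Cldn11, which seals the radial component of myelin, led by level per length. Next came Mog, a protein of the outermost lamella, at 5405 ± 724 TPM, and Mag, a glycoprotein of the layer next to the axon, at 3861 ± 1248 TPM. Opalin, a membrane glycoprotein of the paranodal loops, stood at 2126 TPM, the tetraspanin Tspan2 at 1080 TPM and the receptor Gpr37 at 872 TPM. Cntn2, an adhesion molecule beside the paranode, reached 501 TPM and Nfasc, whose glial form holds the paranode to the axon, 121 TPM. Cldn11 was 6106, 5304, 6500 and 6370 CPM in scrambled mice 1, 3, 5 and 7. In antagomir mice 2, 4, 6 and 8 it was 6585, 5554, 5659 and 5040 CPM. The groups overlapped, with antagomir mice at both ends.

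The cytoplasmic genes ranged from Cnp and Cryab down to Sec14l5. Between them lay Plekhb1, a protein that binds membranes, at 2085 ± 173 TPM, Ermn, an actin-binding protein of the mature sheath, at 1586 TPM, Evi2a at 764 TPM and Bcas1, a marker of actively myelinating cells, at 359 TPM. Cnp in oligodendrocyte-like cells was 14057, 9800, 14094 and 11027 CPM in scrambled mice 1, 3, 5 and 7. It was 13893, 11799, 12722 and 10897 CPM in antagomir mice 2, 4, 6 and 8. The treatments overlapped, while every L5 mouse was above every L6 mouse.

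Among enzymes, carriers and other metabolic genes, Qdpr, which recycles the cofactor tetrahydrobiopterin, stood apart at 8849 ± 1464 TPM, and the next, the fatty acid hydroxylase Fa2h, at 1218 ± 235 TPM. The galactosyltransferase Ugt8a at 646 TPM and the sulfotransferase Gal3st1 at 167 ± 62.2 TPM make galactolipid and sulfatide in that order. The remaining levels were 518 TPM for the iron carrier Trf, 452 TPM for the ion channel Tmem63a, 368 TPM for Aspa, which splits N-acetylaspartate, 317 TPM for the protease Adamts4 and 208 TPM for Serinc5. Qdpr was 4834, 4522, 5467 and 3592 CPM in scrambled mice 1, 3, 5 and 7. In antagomir mice 2, 4, 6 and 8 it was 4429, 3798, 4869 and 5781 CPM. The groups overlapped over nearly their whole range.

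Of the transcription factors, Olig1 was highest at 3306 ± 786 TPM, followed by the homeodomain factor Nkx6-2 at 576 TPM and Olig2 at 190 ± 124 TPM. Myrf and the zinc finger factor Zeb2, which is needed for myelination, were among the lowest of the list in TPM, over long exon lengths of 8562 and 19942 bases. Olig1 was 2319, 1735, 2515 and 1672 CPM in scrambled mice 1, 3, 5 and 7. In antagomir mice 2, 4, 6 and 8 it was 2632, 1648, 2309 and 1892 CPM. Treatments overlapped, and the L5 mice were again all above the L6 mice.

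Much of the list was close to silent outside oligodendrocyte-like cells. Among the 5 larger classes, the highest other class stayed under 1% of the oligodendrocyte-like level in CPM for 19 genes and under 5% for 23. With the fibroblast-like and precursor-like cells included, these counts were 13 and 18. Mag peaked in the other larger classes at 0.589 CPM in neuroblast-like cells and Mog at 1.03 CPM, against 4581 and 2713 CPM. Among the larger classes 32 genes were in all 8 mice highest in oligodendrocyte-like cells, Serinc5 in 7 mice and Zeb2 in 2. Classes come from clusters of the same cells, so these are descriptions without a test.

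The exceptions fell in distinct classes. Zeb2 averaged 772 ± 452 CPM in neuroblast-like cells against 451 CPM in oligodendrocyte-like cells, and 21 of 25 neuroblast-like cells (84.0%) were over 10 CPM. In the same class Nfasc, whose other isoforms belong to axons, reached 182 ± 177 CPM, or 36.6% of its oligodendrocyte-like level, and Serinc5 103 CPM, or 25.8%. Pllp in endothelial-like cells reached 119 ± 36.0 CPM, or 29.4%, with 58 of 87 cells over 10 CPM (66.7%). Mal averaged 446 ± 231 CPM in endothelial-like cells, and 43 of 87 (49.4%) were over 10 CPM, the top cell holding 7.69% of its counts there. Mog in those endothelial-like cells was at 0.0753 CPM and Mbp at 0.613 CPM, so these 2 genes did not accompany Mal and Pllp there.

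The 250 bases before a RefSeq start of Mag and of Mal (GRCm38.p6) are shown because both are myelin genes, yet only Mal was seen in a vascular class. RefSeq listed 3 promoters for Mag, of which the first is shown, and 1 for Mal. Capitals mark SOX words (ACAAAG or AACAAT, on either strand) and the word CTGGCAC of the Myrf motif.
Mag, chr7:30914864-30915113, minus strand: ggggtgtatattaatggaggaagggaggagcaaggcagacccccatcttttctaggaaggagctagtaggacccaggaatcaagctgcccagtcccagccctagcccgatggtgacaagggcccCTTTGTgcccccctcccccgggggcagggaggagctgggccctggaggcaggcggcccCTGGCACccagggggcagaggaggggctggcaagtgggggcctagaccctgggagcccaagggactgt
Mal, chr2:127656696-127656945, minus strand: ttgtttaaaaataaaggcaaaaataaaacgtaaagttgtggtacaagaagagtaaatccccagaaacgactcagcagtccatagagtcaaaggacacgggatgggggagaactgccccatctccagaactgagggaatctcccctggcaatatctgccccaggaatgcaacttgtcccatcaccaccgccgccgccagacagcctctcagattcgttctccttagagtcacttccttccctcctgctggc

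The Mag window shown held 1 of each word and the Mal window neither, and the other Mag promoters were not searched. A RefSeq window was listed for 25 of the 34 genes, and for members and all genes alike only the first listed window of a gene was searched. CTGGCAC was in 4 of these (16.0%; Mag, Cnp, Serinc5 and Sec14l5) and in 4.14% of 27025 listed promoters, on either strand. A SOX word was in 8 members (32.0%) against 24.21% of promoters, and the E-box CANNTG, the word of Olig factors among many others, in 15 (60.0%) against 66.04%. The words do not overlap one another in the windows shown.

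RGL or astrocyte-like cells held a different subset. Plekhb1 averaged 331 ± 159 CPM there, with 95 of 204 cells (46.6%) over 10 CPM, and Cnp 239 ± 62.2 CPM, with 102 cells over that level. Olig1 averaged 139 ± 83.4 CPM with 61 cells (29.9%), Cryab 121 CPM, and Gpr37 66.3 CPM with 41 cells (20.1%). Mbp behaved otherwise. It averaged 124 CPM, but only 8 of 204 cells (3.92%) were over 10 CPM and 1 cell held 77.9% of its 11559 counts in the class. At least 1 count of Mbp was found in classes that should lack it, in 29.9% of endothelial-like and 22.6% of mural-like cells. RGL or astrocyte-like cells, with a median depth of 550858.5 counts, had 31.9%, the 8 cells over 10 CPM included. Shares of this size are read as background.

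Mural-like cells held Cryab at 284 ± 87.3 CPM, with 41 of 84 cells (48.8%) over 10 CPM. All 12 fibroblast-like cells had counts of Trf, the iron carrier, at 158 CPM of their sum or 31.2% of its oligodendrocyte-like level. The 5 precursor-like cells came from 2 mice. Their summed counts gave 6077 CPM of Olig1 and 281 CPM of Olig2, above the oligodendrocyte-like means of 2090 and 145 CPM. Serinc5 stood at 470 CPM in them, against 402 CPM. Nfasc at 268 CPM, Pllp at 254 CPM and Bcas1 at 233 CPM held 54.0, 62.9 and 58.5% of their oligodendrocyte-like levels, while Mog, Cldn11, Mobp, Opalin and Ermn had no count in these 5 cells.

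**Figure D2:**
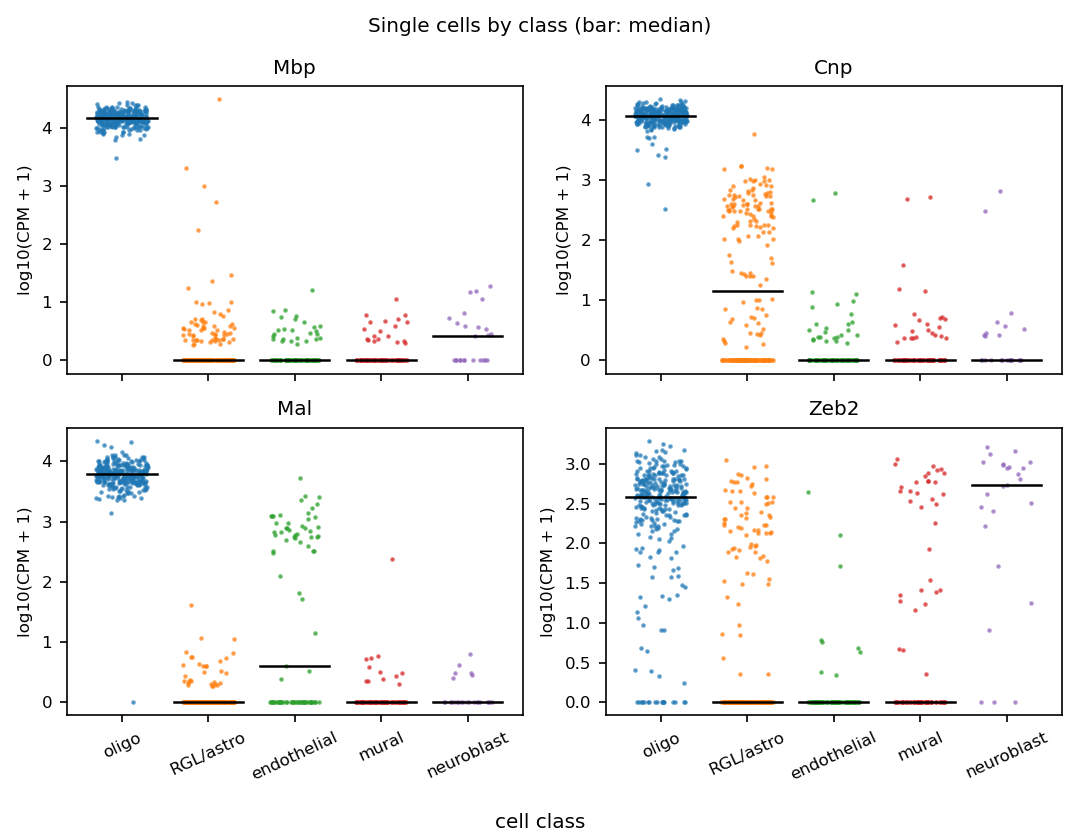
Level of Mbp, Cnp, Mal and Zeb2 in single cells, as log10 of CPM plus 1, in 5 classes, each point a cell and each bar the class median. Mbp is over 10 CPM in 8 of 204 RGL or astrocyte-like cells but in all 299 of the oligodendrocyte-like class, whereas Mal is over 10 CPM in 43 of 87 endothelial-like cells.

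Within the oligodendrocyte-like class most members were found in nearly every cell. Mbp, Pllp, Mog, Cldn11, Tspan2, Cnp, Plekhb1, Cryab, Fa2h, Qdpr, Trf and Olig1 had a count in 100% of the 299 cells. Enpp6, which is known from newly forming oligodendrocytes, had a count in 56 cells (18.7%, Wilson 95% interval 14.7 to 23.5%) and Gal3st1 in 104 cells (34.8%). Sec14l5 was detected in 61.5%, Olig2 in 63.2% and Nkx6-2 in 75.9% of cells. Enpp6 had a count in 2.38% of mural-like cells. Gal3st1 had a count in 0.980% of RGL or astrocyte-like cells and in 1 of 87 endothelial-like cells. The shares of Enpp6 and Gal3st1 were thus above those of these classes. Olig2 had a count in 18 of 204 RGL or astrocyte-like cells and in all 5 precursor-like cells. After thinning each oligodendrocyte-like cell to 200000 counts, which 294 cells could give, the shares were 18.7% for Enpp6 and 33.7% for Gal3st1.

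The cells fell into 3 oligodendrocyte-like clusters of 142, 35 and 122 cells. The smallest was led by Egr2, Dnajb1, Egr1, Arc and Fos, which are induced by activity or by handling of cells. Across the clusters the highest and lowest level of a member differed by 1.01-fold to 2.23-fold (median 1.14-fold), and 30 of 34 members differed by under 1.5-fold. From cell to cell the correlations between members were mostly low. Over 561 gene pairs in 299 cells the median Spearman correlation of CPM was 0.03, and 15 pairs were over 0.3. Cells without a count, 81.3% of them for Enpp6, enter these values. Pairs of other genes at like levels were not compared, so how far counting noise lowers the correlations was not tested. The highest was Mag with Cnp at 0.46, but this was 0.11 within L5 and 0.38 within L6 cells. Cldn11 with Cnp gave 0.42 over all cells, 0.23 within L5 and 0.49 within L6. The cells of a mouse share a set and a sort day, so the correlations describe these cells and carry no test.

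The antagomir comparison asks whether blocking miR-132 changed these genes. Over all kept cells none of the 34 passed the threshold, an adjusted p under 0.05 in edgeR's quasi-likelihood test on counts summed per mouse, with Benjamini-Hochberg adjustment. The same test called 0 of 15447 genes (0.0%). At an unadjusted p under 0.05 it gave 280 genes (1.81%) and 0 of the 34. At an adjusted p under 0.05 DESeq2 called 10 genes and limma 0. The fitted level was lower in antagomir mice for 33 members and higher for 1, with a median log2 difference of -0.25 against 0.00 over all genes tested. The reach of a member's 95% interval to either side was 0.69 at the median, on the log2 scale. Of the 34 members 0 had groups that did not overlap in either direction, against 0.893% of genes lower and 1.06% higher.

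That median rested largely on mouse 4. Without it the median was -0.08 and 10 members were higher. Within L5 the median was -0.08 and within L6, which holds mouse 4, it was -0.39. Without antagomir mouse 8 it was -0.42, and without scrambled mouse 1 -0.37. In sums over all cells, fewer cells of a class and less RNA per cell cannot be told apart. The share of oligodendrocyte-like cells was 33.3, 48.9, 45.1 and 49.4% in scrambled mice 1, 3, 5 and 7 and 43.3, 26.7, 36.0 and 52.4% in antagomir mice 2, 4, 6 and 8. Mouse 4 had the lowest share and mouse 8 the highest, both after the antagomir. The means were 39.6% ± 10.9 and 44.2% ± 7.49 (SD, n = 4 mice each), a difference of -4.60 percentage points with p = 0.543 in an exact two-sided permutation test, whose smallest p is 0.0286. Without mouse 4 the difference was -0.29 points, and without mouse 8 it was -8.86 points. The summed level of 18 other oligodendrocyte markers ran from 21210 to 37700 CPM in antagomir and from 23120 to 38030 CPM in scrambled mice. Its part in the result was not tested.

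In all cells Gal3st1, the sulfatide enzyme, was 46.3, 61.0, 65.2 and 79.9 CPM in scrambled mice 1, 3, 5 and 7. It was 45.1, 16.6, 54.9 and 30.6 CPM in antagomir mice 2, 4, 6 and 8. Mouse 4 was lowest, and mice 2 and 6 lay near the scrambled mice. The log2 difference was -0.81 (SE 0.38). Adjusted p was 1.00 by edgeR's quasi-likelihood test for this gene and for each other member tested between the treatments with all 8 mice, in each class described here. Enpp6 gave -1.05 (SE 0.62) from 50.8, 124, 12.9 and 52.2 CPM in scrambled mice 1, 3, 5 and 7 and 40.4, 12.1, 24.2 and 39.3 CPM in antagomir mice 2, 4, 6 and 8. Scrambled mice held both the highest and nearly the lowest level of Enpp6. Ugt8a gave -0.36 (SE 0.23) from 372, 552, 435 and 560 CPM in scrambled mice 1, 3, 5 and 7 and 423, 280, 376 and 441 CPM in antagomir mice 2, 4, 6 and 8. The 1 member fitted higher was Evi2a, at 0.15 (SE 0.45), from 111, 378, 224 and 324 CPM in scrambled mice 1, 3, 5 and 7. In antagomir mice 2, 4, 6 and 8 it was 217, 205, 196 and 536 CPM, and its sign turned without mouse 8 (-0.38) and without mouse 1 (-0.10). Evi2a (chr11:79526560-79530609, minus strand) lies within Nf1 on the other strand, and the sources used here do not give the strand setting of the counts, so reads of the 2 genes cannot be told apart.

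**Figure D3:**
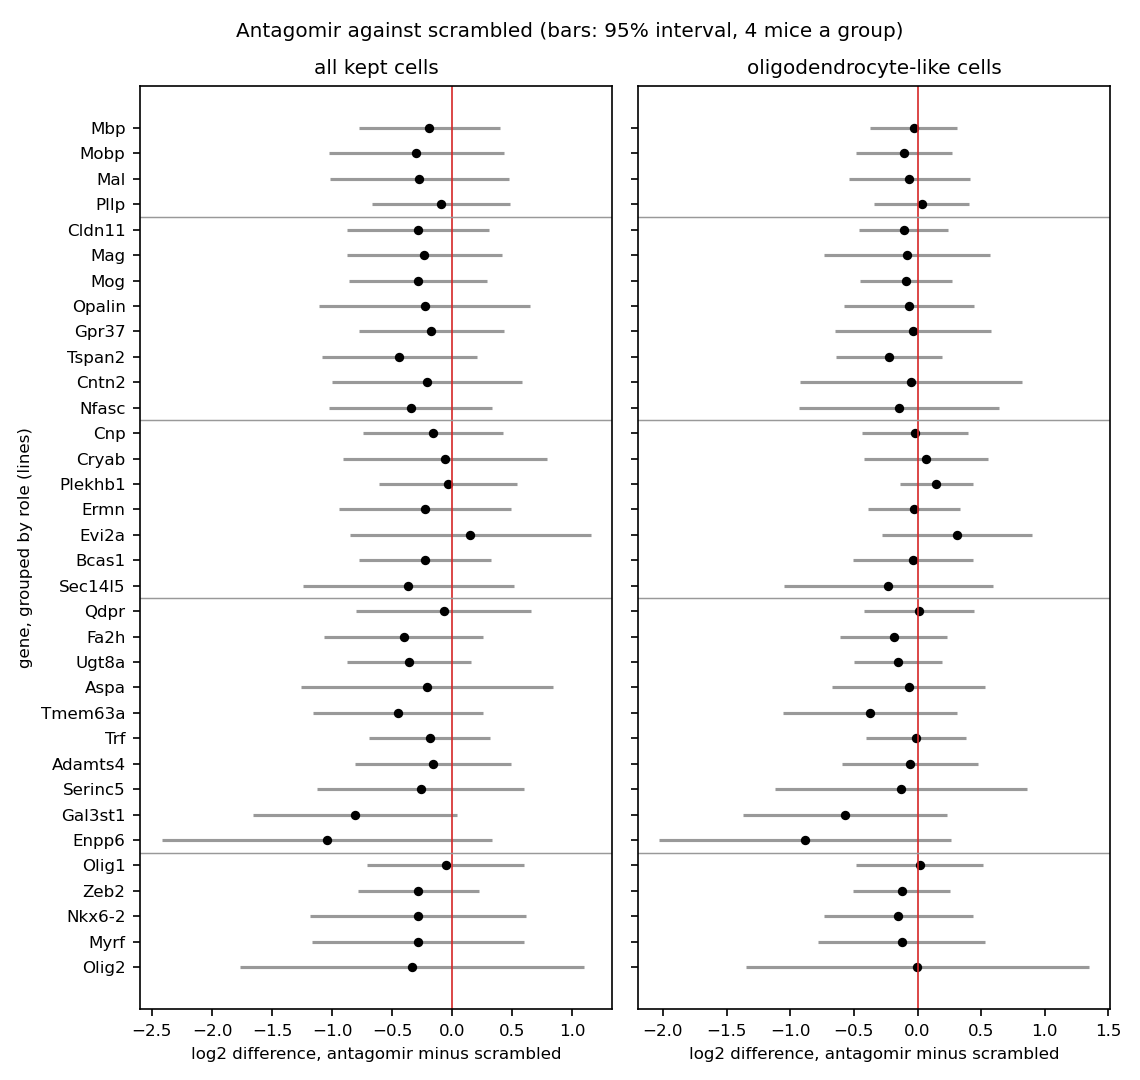
Antagomir minus scrambled log2 difference of each of the 34 members with its 95% interval, over all cells and within oligodendrocyte-like cells (4 mice each). All intervals cross 0, and the points of all cells lie mostly left of 0 with a median of -0.25, those of oligodendrocyte-like cells nearer 0 with a median of -0.07.

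Within oligodendrocyte-like cells, where the share of the class no longer enters, the members lay closer to 0. None of 34 was called by edgeR's quasi-likelihood test, which called 0 of 10768 genes (0.0%). At an unadjusted p under 0.05 it gave 211 genes (1.96%) and 0 of the 34. At an adjusted p under 0.05 DESeq2 called 13 genes and limma 0. The fitted level was lower for 28 members and higher for 6, with a median log2 difference of -0.07 against -0.01 over all genes, and a median reach of the 95% interval of 0.49 to either side. Without mouse 4 the split was 18 lower and 16 higher with a median of -0.02. Mbp differed by -0.03 (95% interval -0.37 to 0.31), Cldn11 by -0.11, Cnp by -0.02, Qdpr by 0.01 and Olig1 by 0.02. The signs of Mbp, Cnp, Qdpr and Olig1 turned when single mice were left out. Groups did not overlap for 0 of 34 members in the lower direction, against 1.31% of genes.

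**Figure D4:**
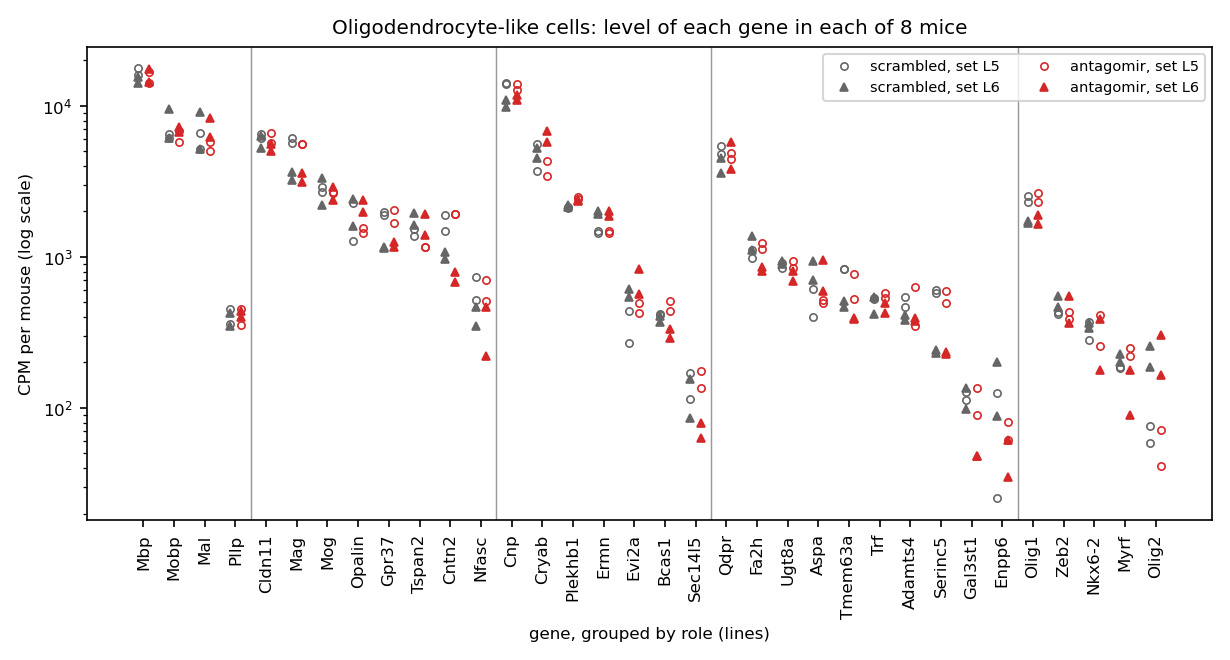
Level of the 34 members in oligodendrocyte-like cells of each of the 8 mice (CPM, log scale), scrambled in grey and antagomir in red, L5 as open circles and L6 as filled triangles. Grey and red overlap for every member but Plekhb1, while circles and triangles separate for Serinc5, Mag, Cntn2, Gpr37 and Olig2 among others.

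The lower members with the smallest p were again Enpp6 and Gal3st1, with Tmem63a. Enpp6 was 125, 201, 25.2 and 88.2 CPM in scrambled mice 1, 3, 5 and 7 and 80.4, 35.0, 60.9 and 61.4 CPM in antagomir mice 2, 4, 6 and 8, a log2 difference of -0.88 (SE 0.52). Gal3st1 was 114, 98.9, 127 and 135 CPM in scrambled mice 1, 3, 5 and 7 and 89.8, 47.9, 136 and 47.8 CPM in antagomir mice 2, 4, 6 and 8, a log2 difference of -0.57 (SE 0.36). The low values of Gal3st1 were mice 4 and 8, both of set L6. Within L6 its difference was -1.28 (adjusted p = 0.735 by edgeR's quasi-likelihood test) and within L5 -0.14, and Enpp6 gave -1.56 and -0.14. Tmem63a differed by -0.37 (SE 0.31) from 837, 467, 831 and 507 CPM in scrambled mice 1, 3, 5 and 7 and 774, 387, 525 and 393 CPM in antagomir mice 2, 4, 6 and 8. Those values followed the library set more than the treatment.

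Of the higher members, Plekhb1, the gene with a pair of seed matches, was 2105, 2201, 2153 and 2148 CPM in scrambled mice 1, 3, 5 and 7. It was 2418, 2354, 2512 and 2366 CPM in antagomir mice 2, 4, 6 and 8. The groups did not overlap, as for 0.882% of all genes in that direction and for 1 of 34 members. The difference was small, 0.15 on the log2 scale (SE 0.13, adjusted p = 1.00 by edgeR's quasi-likelihood test), with 0.17 within L5 and 0.13 within L6. Evi2a was 271, 612, 439 and 545 CPM in scrambled mice 1, 3, 5 and 7 and 425, 572, 494 and 837 CPM in antagomir mice 2, 4, 6 and 8, a log2 difference of 0.31 (SE 0.27). Cryab gave 0.07 (SE 0.22) from 3706, 5241, 5620 and 4534 CPM in scrambled mice 1, 3, 5 and 7 and 4300, 5801, 3415 and 6811 CPM in antagomir mice 2, 4, 6 and 8. Mice 6 and 8, at the ends of its range, had both received the antagomir. The other genes with a seed match, Myrf and Zeb2, gave -0.12 and -0.13.

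In RGL or astrocyte-like cells 12 members were abundant enough to test, 6 lower and 6 higher, with a median of 0.08 against -0.01 over all genes. None was called by edgeR's quasi-likelihood test, which called 0 of 11361 genes (0.0%). At an unadjusted p under 0.05 it gave 177 genes (1.56%) and 0 members. DESeq2 called 8 genes at an adjusted p under 0.05. The median reach of the interval was 1.41, and it was shorter for some members, such as Cnp. Gpr37 was 159, 83.5, 28.9 and 76.1 CPM in scrambled mice 1, 3, 5 and 7 and 57.9, 38.4, 54.6 and 32.3 CPM in antagomir mice 2, 4, 6 and 8, a log2 difference of -0.95 (SE 0.54). Qdpr was 42.5, 3.38, 53.9 and 35.6 CPM in scrambled mice 1, 3, 5 and 7 and 51.4, 112, 54.1 and 156 CPM in antagomir mice 2, 4, 6 and 8, a log2 difference of 1.43 (SE 0.76). Groups overlapped for both, Gpr37 through mouse 5 and Qdpr through mouse 2. Of the 12 members 0 had groups that did not overlap, against 0.924% of genes lower and 1.35% higher.

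Nfasc gave -0.89 (SE 0.70) in these cells, from 43.9, 97.3, 56.1 and 92.2 CPM in scrambled mice 1, 3, 5 and 7 and 90.7, 13.4, 46.7 and 10.9 CPM in antagomir mice 2, 4, 6 and 8. Zeb2 gave 0.71 (SE 0.58) from 113, 87.0, 28.3 and 55.9 CPM in scrambled mice 1, 3, 5 and 7 and 268, 88.3, 64.9 and 54.9 CPM in antagomir mice 2, 4, 6 and 8. Without mouse 2 the difference of Zeb2 was -0.04. Olig2 gave -1.63 (SE 1.98), from 3.43, 38.1, 0.0878 and 16.8 CPM in scrambled mice 1, 3, 5 and 7 and 0, 0.274, 13.6 and 4.80 CPM in antagomir mice 2, 4, 6 and 8. Mbp gave 2.24 (SE 1.91), from 1.00, 2.56, 142 and 25.1 CPM in scrambled mice 1, 3, 5 and 7 and 30.4, 1.13, 0.512 and 786 CPM in antagomir mice 2, 4, 6 and 8. That value rested on mouse 8, without which it was -2.12. The difference in response between the classes, tested with the mouse as a block, could be read for these 12 members. EdgeR's quasi-likelihood test called 0 of the 12 and 0 of 13674 genes (0.0%), and at an unadjusted p under 0.05 there were 0 of the 12 and 309 genes (2.26%). The fitted differences ran from -1.67 to 2.33 on the log2 scale. The other 22 members were too low in RGL or astrocyte-like cells for this comparison.

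The library sets moved the members more than the treatment did. In oligodendrocyte-like cells the median absolute log2 difference of a member was 0.32 between L6 and L5 and 0.09 between treatments, and 30 of 34 members had the larger value between sets. With treatment as a covariate, edgeR's quasi-likelihood test called 5 of 34 members, 4 lower and 1 higher in L6, against 49 of 10768 genes (0.455%). At an unadjusted p under 0.05 there were 18 members, 13 lower and 5 higher, against 1166 genes (10.8%). The median over the members was -0.20 against 0.00 over all genes, with a median reach of the 95% interval of 0.34. Groups did not overlap for 9 members lower in L6 (3.11% of genes) and 3 higher (6.3% of genes).

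Serinc5, of the serine incorporator family (chr13:92611091-92711947, plus strand), was 580, 499, 607 and 594 CPM in L5 mice 1, 2, 5 and 6 and 242, 234, 232 and 227 CPM in L6 mice 3, 4, 7 and 8. The sets did not overlap, with means of 570 ± 48.5 and 234 ± 6.16 CPM (SD, n = 4 mice each). The log2 difference was -1.37 (SE 0.12, adjusted p = 0.00453 by edgeR's quasi-likelihood test). Mag (chr7:30899176-30914873, minus strand) was 5654, 5611, 6171 and 5611 CPM in L5 mice 1, 2, 5 and 6 and 3215, 3605, 3624 and 3156 CPM in L6 mice 3, 4, 7 and 8, a log2 difference of -0.85 (SE 0.10, edgeR adjusted p = 0.0118). Cntn2 (chr1:132509427-132543256, minus strand) was 1903, 1933, 1495 and 1938 CPM in L5 mice 1, 2, 5 and 6 and 970, 796, 1082 and 679 CPM in L6 mice 3, 4, 7 and 8, a log2 difference of -1.15 (SE 0.16, edgeR adjusted p = 0.0260). Gpr37 (chr6:25665878-25690729, minus strand) was 1976, 2047, 1888 and 1670 CPM in L5 mice 1, 2, 5 and 6 and 1166, 1258, 1148 and 1170 CPM in L6 mice 3, 4, 7 and 8, a log2 difference of -0.77 (SE 0.11, edgeR adjusted p = 0.0313). None of these genes had overlapping sets. Within both sets the treatments overlapped for Serinc5 only. Cntn2 was higher in the antagomir mice than in the scrambled mice of L5 and lower in those of L6. Mag was lower in the antagomir mice of L5 and Gpr37 higher in those of L6, and their treatments overlapped in the other set.

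Olig2 (chr16:91225457-91228677, plus strand) went the other way. It was 58.3, 71.0, 76.2 and 41.6 CPM in L5 mice 1, 2, 5 and 6 and 186, 305, 258 and 164 CPM in L6 mice 3, 4, 7 and 8. The log2 difference was 1.80 (SE 0.28, adjusted p = 0.0380 by edgeR's quasi-likelihood test). Olig1, its neighbour on chromosome 16, was lower in L6 by its values, 1737 ± 110 against 2444 ± 157 CPM (SD, n = 4 mice each), without passing the threshold (log2 difference -0.58, SE 0.11, edgeR adjusted p = 0.0641). Tmem63a gave -0.85 (SE 0.15, edgeR adjusted p = 0.0540).

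On the higher side Ermn was 1449, 1480, 1478 and 1446 CPM in L5 mice 1, 2, 5 and 6 and 1930, 2015, 2011 and 1868 CPM in L6 mice 3, 4, 7 and 8. The sets did not overlap, but at a log2 difference of 0.33 it did not pass (edgeR adjusted p = 0.214). Aspa was 399, 518, 615 and 498 CPM in L5 mice 1, 2, 5 and 6 and 947, 592, 708 and 951 CPM in L6 mice 3, 4, 7 and 8, a log2 difference of 0.57 (edgeR adjusted p = 0.315). Tspan2 was 1538, 1166, 1371 and 1167 CPM in L5 mice 1, 2, 5 and 6 and 1633, 1925, 1968 and 1398 CPM in L6 mice 3, 4, 7 and 8, a log2 difference of 0.32 (edgeR adjusted p = 0.452). The sets overlapped for Aspa through mouse 4 and for Tspan2 through mouse 8. Evi2a gave 0.57 (edgeR adjusted p = 0.269) and Cryab 0.30 (edgeR adjusted p = 0.653).

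**Figure D5:**
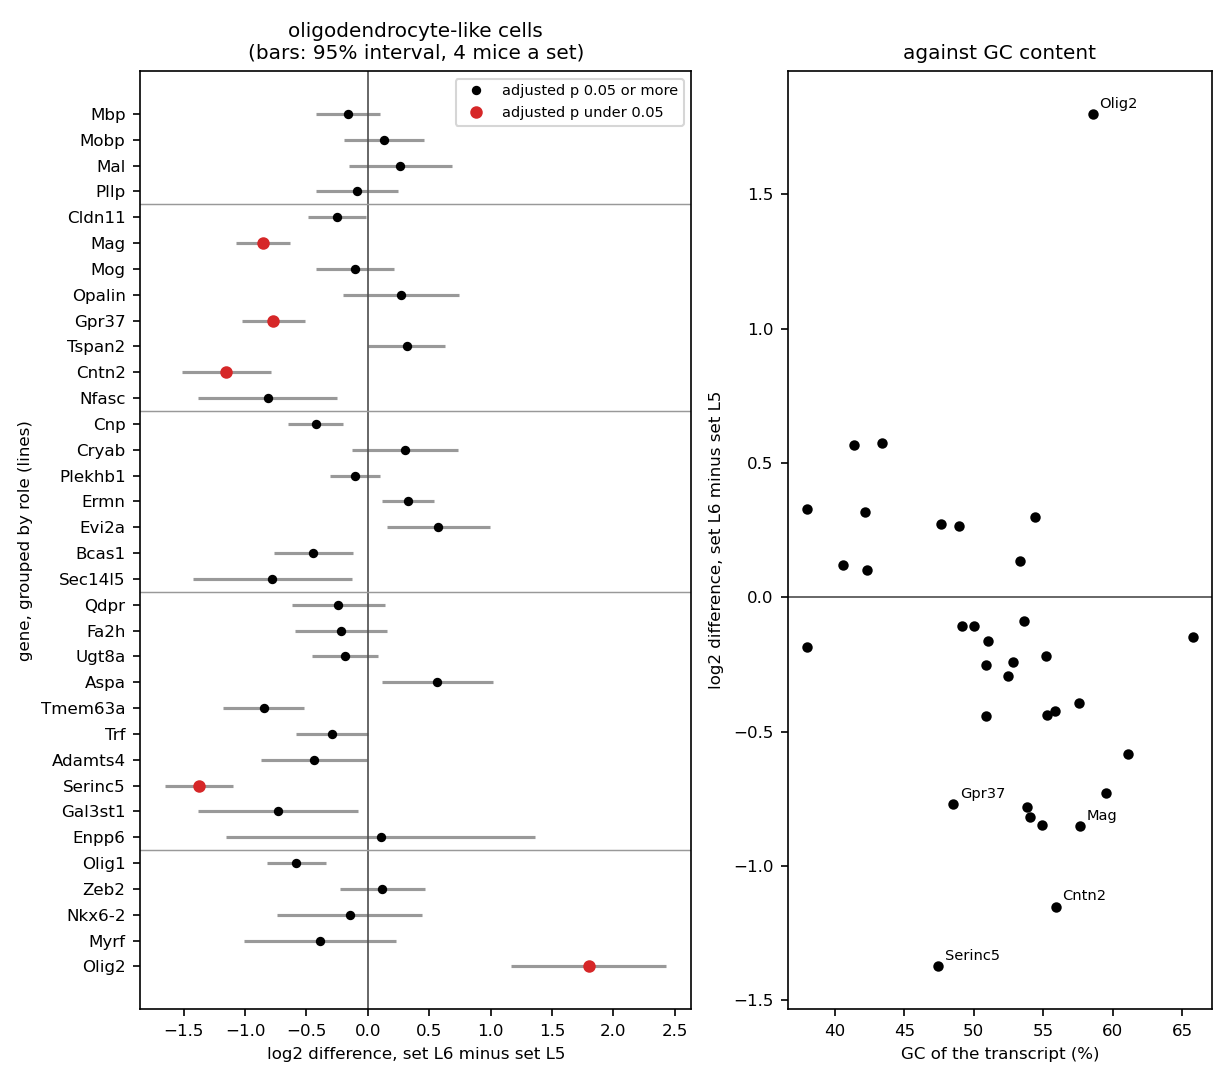
Left, L6 minus L5 log2 difference of each member in oligodendrocyte-like cells with its 95% interval (4 mice each), with called members in red. Right, the same difference against the GC content of the gene's transcript. Serinc5, Cntn2, Mag and Gpr37 lie below 0 and Olig2 above it, and members richer in GC tend to lie lower (Spearman -0.444 over 34 genes).

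The calls depended on the number of mice. Leaving out single mice kept Serinc5 past the threshold each time (edgeR adjusted p 0.0144 to 0.0352). Mag lost it without mouse 1, 2, 3, 7 or 8 (0.0610 to 0.0894) and Cntn2 without any mouse but mouse 5 (0.0684 to 0.145). Gpr37 and Olig2 lost it without each of the 8 mice (0.0501 to 0.160 and 0.0804 to 0.167). With sort day as a covariate Cntn2, Gpr37 and Olig2 stood at adjusted p = 0.0597, 0.0588 and 0.0708, and without the cluster led by immediate early genes Olig2 stood at 0.0746. All 5 differences kept their direction in these fits. The sets also differed in how their cells fell into the 3 oligodendrocyte-like clusters. Per mouse the cluster of 142 cells held 15.4 to 35.5% of L5 and 51.1 to 74.4% of L6 cells, and that of 122 cells 45.2 to 59.4% and 25.6 to 42.2%. The cluster of 35 cells held 12.5 to 35.9% and 0 to 6.67%, at most 3 cells in an L6 mouse, so levels were not compared there.

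Within the larger clusters the called genes differed in the same direction, as summed levels without a test. In the cluster of 142 cells Mag was 5854 CPM in L5 and 3223 CPM in L6 cells, Serinc5 524 and 226 CPM, Cntn2 1821 and 916 CPM, Gpr37 1889 and 1223 CPM, and Olig2 61.9 and 220 CPM. In the cluster of 122 cells Mag was 5884 and 3658 CPM, Serinc5 606 and 266 CPM, Cntn2 1770 and 868 CPM, Gpr37 1942 and 1105 CPM, and Olig2 63.4 and 231 CPM.

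Other measures separated the sets as well. The median mitochondrial share per oligodendrocyte-like cell was 1.03 to 1.32% in L5 and 3.38 to 4.10% in L6 mice, and that of the ribosomal RNA gene Rn18s-rs5 8.02 to 10.4% and 5.52 to 7.23%. The summed level of 16 immediate early and dissociation genes was 3286 to 6343 CPM in L5 and 418 to 2449 CPM in L6 mice. That of the 18 other oligodendrocyte markers was 51910 to 56810 CPM in L5 and 57550 to 60870 CPM in L6. The set difference fell with GC content over 9514 genes (Spearman -0.255), whose median was 49.69%. Of the called members, Mag and Cntn2 were lower in L6 at 57.6 and 55.9% GC. Serinc5 and Gpr37 were lower in L6 although under that median, at 47.4 and 48.5%, and Olig2 was higher in L6 at 58.5%. With transcript length the Spearman correlation was -0.348 over the members and -0.056 over all genes. The part of these measures in the result was not tested. The treatments were balanced over the sets, and the difference in response between sets gave 0 of 34 members and 0 of 12803 genes (0.0%) by edgeR's quasi-likelihood test. At an unadjusted p under 0.05 there were Fa2h (-0.69), Gal3st1 (-1.14) and Cntn2 (-0.61) among 721 genes (5.63%).

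Other genes of the pathway were taken by list. Of 46 further myelin and mature oligodendrocyte genes tested in oligodendrocyte-like cells, 31 were lower and 15 higher after the antagomir (median log2 difference -0.06) and 0 were called by edgeR's quasi-likelihood test. The receptor gene Gpr62 was the only one at an unadjusted p under 0.05 (log2 difference -0.58, edgeR adjusted p = 1.00). Over all cells 40 were lower and 6 higher, with a median of -0.20. Of 17 precursor and newly formed oligodendrocyte genes 7 could be tested in oligodendrocyte-like cells, 5 lower and 2 higher, with a median of -1.28 (range -3.16 to 0.67). Of 11 genes listed as brakes of myelination 5 could be tested, all 5 lower, with a median of -0.73 (range -3.16 to -0.11). Gpr17, Sox6 and Tcf7l2 stood on both lists. The summed level of the precursor list was 503 CPM in scrambled mouse 3 and 118 to 245 CPM in the other mice. That of the brakes was 307 and 281 CPM in scrambled mice 3 and 7 and 103 to 140 CPM in the others. None of either list was called, and over all cells their medians were 0.08 and 0.02. Of 13 testable immediate early genes 12 were higher and 1 lower, with a median of 0.39 and 0 called. Between the sets, 2 of the 46 myelin genes were called, the tubulin-binding Tppp (log2 difference -0.98, edgeR adjusted p = 0.0380) and the kinase gene Aatk (-1.12, edgeR adjusted p = 0.0181), both lower in L6, as was Arc of the immediate early genes (-1.27, edgeR adjusted p = 0.0380).

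The genes whose pattern was most like that of Mbp over 49 pairs of class and mouse, among 5681 genes compared, were Kif1b (Spearman 0.847), Mapt (0.776), Psat1 (0.772), Lap3 (0.757) and Npc1 (0.754), none of them a member. The closest member was Cntn2 at 0.734, and Mobp reached 0.679. Kif1b encodes a kinesin motor and Mapt the microtubule protein tau. Outside oligodendrocyte-like cells Mbp was over 10 CPM in few cells, such as 1 of 87 endothelial-like and 1 of 84 mural-like cells. Many of the ranks compared are thus ranks of low levels, and by this measure Mog ranked 219 and Cnp 403. The points share mice, sets and sort days, so these values describe likeness over these classes only.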

How the data were processed

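Single nestin-GFP-positive cells were processed by Smart-seq2 with oligo-dT priming, a method without molecular identifiers, where each count is 1 read. The authors deposited raw counts per gene symbol and well, made with STAR 2.5.2 and featureCounts 1.5.1 on mm10, per the submitters' processing notes; the sources used here name neither the annotation release nor the strand setting. A second deposited table gave mouse, treatment, project and sort day as text. It also gave the day of the Smart-seq2 reaction and of the cDNA purification of each well, which were not used here. The 4 labelled samples carry no link to single mice, and each mouse of that table was taken as 1 replicate.

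Wells with 500 to 6000 detected genes were clustered with scanpy 1.11.5 (2000 variable genes other than the members, 20 components, 15 neighbours, Leiden resolution 1), and clusters were named where at least 3 markers of a class were in 25% or more of their cells. No doublet caller was run. Counts summed per mouse were tested with edgeR 4.0.16 (filterByExpr, TMM, quasi-likelihood test, Benjamini-Hochberg over all genes tested); DESeq2 1.42.0 and limma 3.58.1 were alternatives. The code was tested on simulated data. Intervals on shares of cells are Wilson intervals and cover counting error only.

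The members, gene lists and tests were chosen with earlier results of these data known. All 34 members are given by level. Those given mouse by mouse were the 3 with the smallest edgeR p in each direction of a treatment comparison, the 6 in each direction between library sets, and the member with the highest CPM of each role in oligodendrocyte-like cells. Set and sort day together pair 1 mouse of each treatment with 1 of the other. The correlation of deviations from the group means was taken for each pair over all cells and again within the oligodendrocyte-like and the RGL or astrocyte-like class. It was -0.006 to 0.147. RefSeq listed promoters for 25 of the 34 members and the mature miRNA.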

Additional observations from a re-analysis of the deposited data

Results flagged for a closer look

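In 96 groups of 4 mice checked, 7 had a mouse far from the other 3, and chance gives about 1 in 20 groups. In RGL or astrocyte-like cells, Mbp stood at 786 CPM in antagomir mouse 8 (others 0.512 to 30.4 CPM) and at 142 CPM in scrambled mouse 5 (others 1.00 to 25.1 CPM). Zeb2 in the same class stood at 268 CPM in antagomir mouse 2 (others 54.9 to 88.3 CPM). Over all cells Evi2a was 536 CPM in antagomir mouse 8 (others 196 to 217 CPM). In oligodendrocyte-like cells of set L5, Cnp was 12722 CPM in mouse 6 (others 13893 to 14094 CPM), Mag 6171 CPM in mouse 5 (others 5611 to 5654 CPM) and Cntn2 1495 CPM in mouse 5 (others 1903 to 1938 CPM).

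Wells left out of the analysis also held myelin transcripts. All 16 wells with over 6000 detected genes had Mbp over 1000 CPM and a median of 8959 CPM. Among the 36 wells under 500 detected genes, which had a median of 966 counts, Mbp had a count in 11 and was over 1000 CPM in 7.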

How the results depend on the processing

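The treatment comparisons gave 0 called genes with edgeR under the settings run, the fits with the set as a covariate and without single mice included, whereas DESeq2 called 10 genes over all cells, 8 in the RGL or astrocyte-like and 13 in the oligodendrocyte-like class, with 0 members among them. With mice of the same set and sort day paired as a replicate block, 0 genes and 0 members were called, and the medians over the members were -0.27 over all cells, -0.18 in the RGL or astrocyte-like and -0.08 in the oligodendrocyte-like class. The 49 genes that differed between sets became 485 with DESeq2, 81 with limma, 255 without the filter on low counts, 12 with sort day as a covariate, 28 without the cluster led by immediate early genes (an alternative chosen after seeing the data) and 6 to 23 without single mice. The 5 called members became 10 with DESeq2, 9 without the filter, 2 with sort day and 1 to 3 without single mice. Of 689 alternatives for single genes, 620 kept direction and side of the threshold, 32 lost it, 10 gained it and 27 turned direction. The sign turned with limma for Mbp in RGL or astrocyte-like cells (-0.30), for Evi2a over all cells (-0.090) and for Olig1 in oligodendrocyte-like cells (-0.075), for the last also without the immediate early cluster (-0.041). Cnp in oligodendrocyte-like cells turned to 0.00162 with the set as a covariate and to 0.00168 with the replicate block. Leaving out single mice gave -2.12 to 4.41 for Mbp and -0.039 to 1.04 for Zeb2 in RGL or astrocyte-like cells, and -0.38 to 0.37 for Evi2a over all cells. In oligodendrocyte-like cells it gave -0.12 to 0.14 for Olig1, -0.13 to 0.087 for Cnp, -0.10 to 0.059 for Mbp, -0.10 to 0.12 for Qdpr and -0.10 to 0.22 for Cryab. The cause of these moves was not tested, apart from fewer mice in the last fits. The difference in the share of oligodendrocyte-like cells was -8.86 to -0.29 points without single mice and -4.04 points with either other clustering. At Leiden resolution 0.5 the neuroblast-like class held 59 cells instead of 25. The RGL or astrocyte-like clusters then held 139 and 31 cells, against 204 in the main class. Levels given for these classes are those of the main clustering. Depth limits the sparse members, such as Enpp6 and Gal3st1, whose sums rest on a minority of cells.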
